A study of Drosophila melanogaster with 12 samples.

Results

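The comparison described here set wing discs of nub>mRFP; ecd-RNAi larvae against wing discs of nub>mRFP larvae, with 4 libraries in each group, 8 of the 12 libraries in the series. It asked which genes and functions separate the groups when ecd is targeted, apart from the stress genes usually read in such discs. The genes described were drawn from the 10179 of 17869 gene rows whose mean was at least 10 normalized counts over the 12 libraries. Wing imaginal discs are the larval epithelial sacs that give rise to the wing and part of the thorax of Drosophila melanogaster. Total RNA was taken from 150 pooled discs per sample, dissected from L3 larvae (the third instar) at an age of 7 days after egg laying, and sequenced after removal of ribosomal RNA. All groups carried the nub-Gal4 driver and a UAS transgene for the red fluorescent protein mRFP. The ecd RNAi group had in addition an RNAi transgene against ecd and the control group had none. The driver acts in the nubbin domain, mainly the wing pouch, so each pool also held disc tissue in which the RNAi was not driven. Bulk RNA cannot tell fewer cells of a type from less RNA per cell. The labels call the 4 libraries of a group biological replicates, and conflict on read layout and sequencer.

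The gene ecd (ecdysoneless) encodes a partner of Prp8, the protein at the centre of the spliceosome, which removes introns from nuclear transcripts. Late in the third instar a disc is still an epithelium that grows, is patterned by secreted signals and selects sensory organ precursors, before pulses of the steroid ecdysone start metamorphosis. Metamorphosis brings eversion of the disc, secretion of a chitinous cuticle under an apical matrix, and the silencing of larval programmes. A wing disc also carries tracheal cells, muscle precursors and attached hemocytes (blood cells), and fat body or salivary gland may come along in dissection.

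Each level below is in DESeq2-normalized counts from the authors' deposited table, and levels of a group are listed for replicates 1 to 4 in that order. Changes are given as ecd RNAi over control on the log2(value + 1) scale, with a standard error. The adjusted p is from limma, two-sided, with Benjamini-Hochberg adjustment over the 10179 genes. A gene is said to have risen or fallen where its adjusted p was under 0.05. Where a gene overlaps another, among them ecd, beat-Ic, CG13579, Nrt, bs, CG17272 and CG3902, its level is uncertain, since the sources used here do not say whether counting used strand. Of the 10179 genes, 2280 rose, which is 22.4%, and 2587 fell, which is 25.4%. At least 2-fold rises were called for 797 genes (7.83%) and at least 2-fold falls for 440 genes (4.32%). The 4 values with ecd RNAi lay wholly above or wholly below the 4 control values for 4555 genes (44.7%), so a gap between the groups was common. Shares of a gene list are therefore set beside these percentages, and its median beside the median change of all genes, -0.04.

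The libraries divided by group along the first principal component, which held 48.6% of the variance, and within each group along the second, which held 32.1%. Summed over 8 fat body markers, levels were 2819, 1295, 24741 and 28970 with ecd RNAi, against 1365, 6703, 76700 and 32803 in control. Replicates 3 and 4 of both groups were thus rich in fat body transcripts and replicates 1 and 2 were poor in them, and the groups overlapped. Hemocyte markers, 14 in all, summed to 11372 to 14324 with ecd RNAi and 25645 to 30717 in control. Ppn, a matrix protein of hemocytes and other cells, made up most of that sum, with 9737, 8643, 7095 and 7811 with ecd RNAi, against 25443, 26751, 23886 and 22644 in control. Without Ppn the other 13 summed to 4587, 5017, 4276 and 4822 with ecd RNAi, against 4396, 3966, 3262 and 3002 in control, which overlap and lean the other way. That lean came from vir-1, with 2176, 2301, 1669 and 2418 with ecd RNAi, against 604, 539, 589 and 528 in control (log2 fold change 1.91, adjusted p = 1.0e-07). Of 13 that were tested, 6 fell, 2 rose and 5 did not pass. With the libraries poor in fat body left out 2 fell, and with those rich in it left out 8 fell. Leaving out control replicate 4, or ecd RNAi replicate 1, 2 or 3, gave 1 rise. The 25 markers of wing disc epithelium summed to 122213 to 140978 with ecd RNAi and 135277 to 143220 in control, so the markers of the labelled tissue were abundant in both groups, but 15 of the 25 fell and 3 rose, with a median of -0.39. Adult muscle precursor markers summed to 6489 to 7201 with ecd RNAi and 7844 to 8501 in control, and 4 of 8 fell and 0 rose. The part of these marker changes in the falls of epithelial and patterning genes described below was not tested.

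**Figure D1:**
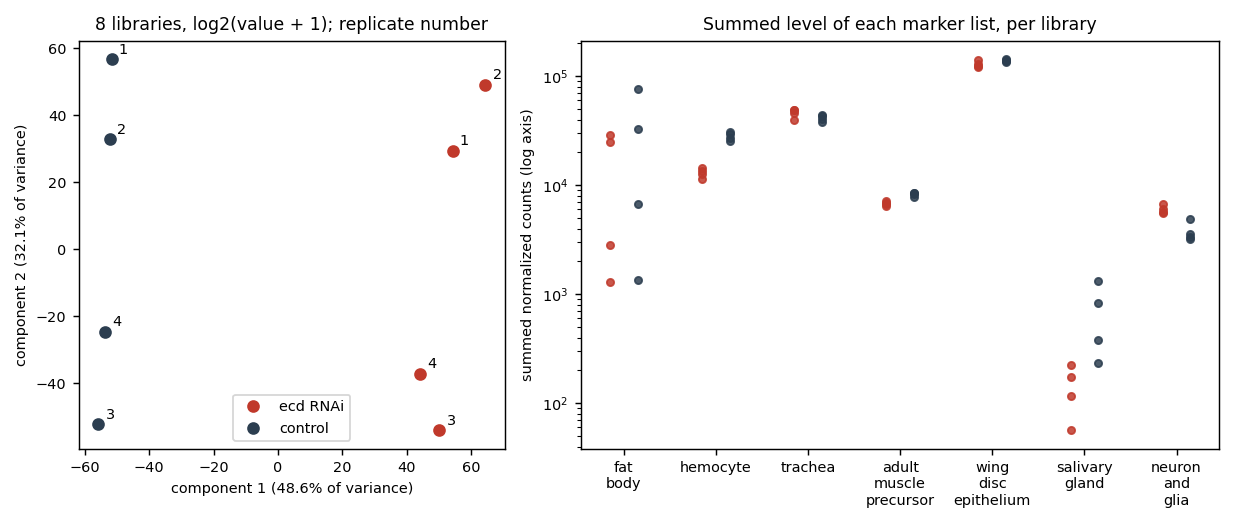
Left: the 8 libraries on the first and second principal components of log2(value + 1), numbered by replicate. Right: summed normalized counts of 7 marker lists on a log axis, 1 point per library, ecd RNAi left of control; fat body differs between replicates of both groups, while hemocyte sums are 11372 to 14324 with ecd RNAi and 25645 to 30717 in control, a gap that comes from Ppn (4276 to 5017 with ecd RNAi and 3002 to 4396 in control without it).

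The targeted gene did not check the labels. Levels of ecd (FBgn0000543, 3L, 2263581 to 2265857, genome build BDGP6) were 1982, 1687, 1423 and 1521 with ecd RNAi, against 1654, 1494, 1421 and 1420.3 in control, and overlapped between the groups (log2 fold change 0.13 ± 0.09, adjusted p = 0.251). It passed as higher under quantile normalization (0.17, adjusted p = 0.0492) and under array weights (0.22, adjusted p = 0.0353), in a range of adjusted p from 0.0353 to 0.68 over the alternatives. Every direction below rests on the label. Xrp1, a bZIP factor known to rise in stressed discs, separated the libraries as labelled, with 22964, 20019, 21561 and 18985 with ecd RNAi, against 4709.5, 4511, 4949 and 5078 in control. The gene nub itself, whose domain the driver marks, had 12434, 11545, 10575 and 8159 with ecd RNAi, against 13697, 13759.9, 11917 and 13354 in control, which overlap (-0.32 ± 0.11, adjusted p = 0.0302), and it did not pass under 7 of 21 alternatives.

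In the rankings of the largest changes, a list of 77 well-known stress genes and genes already picked out from these data was set aside. The 12 largest rises and the 12 largest falls were limited to genes whose groups did not overlap, so that lack of overlap was fixed by the choice. The list set aside held 7 rises larger than the smallest of the 12 described here, namely CG14304, CG8620, orion, Tsf3, Dop2R, Ilp8 and Arc1. The largest rises outside that list were transcripts that were near 0 in control discs. They included an ion channel, a zinc transporter, a cell recognition protein and several genes without a described role. CG44403 (FBgn0265576, 2R, 17616499 to 17617895) had 355, 209, 337 and 478 normalized counts with ecd RNAi, against 0, 0, 0 and 0 in control, where it is listed at 0 in all 4 libraries (adjusted p = 4.4e-10). CG13579 (FBgn0035010, 2R, 24455292 to 24490656) had 295, 224, 738 and 521 with ecd RNAi, against 0, 1.96, 0 and 0 in control (adjusted p = 2.6e-07). For the pseudogene CR10102 (FBgn0033927, 2R, 14360433 to 14361780) the values were 615, 681, 378 and 525 with ecd RNAi, against 0, 0, 0 and 11.2 in control (adjusted p = 8.8e-06). All 3 were at 0 in at least 3 control libraries and in no ecd RNAi library, and CG44403 lies within CG10936 on the same strand, so its reads may be shared with that gene.

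ppk13 (FBgn0053508, 2L, 21086790 to 21088751), a member of the pickpocket family of sodium channel subunits, had 1299.6, 1389, 1374 and 1421 with ecd RNAi, against 1.99, 2.94, 14.1 and 7.72 in control (log2 fold change 7.77 ± 0.41, adjusted p = 1.1e-08). Its neighbour CG33509 (FBgn0053509, 2L, 21084605 to 21086506) showed the same step, with 698, 796, 818 and 785 with ecd RNAi, against 3.98, 2.94, 9.18 and 0.858 in control (7.46 ± 0.39, adjusted p = 1.1e-08). The spread of both genes within the ecd RNAi group was small beside the gap. beat-Ic (FBgn0028644, 2L, 16000291 to 16041703), of the beaten path family of immunoglobulin domain proteins that act in axon guidance, had 319.5, 355, 427 and 394 with ecd RNAi, against 0, 0.991, 2.13 and 1.73 in control (7.52 ± 0.53, adjusted p = 1.8e-07). ZnT35C (FBgn0028516, 2L, 15228728 to 15247714), a zinc transporter known from Malpighian tubules, had 242, 252, 407 and 338 with ecd RNAi, against 3.96, 0, 1.41 and 0.858 in control (7.13 ± 0.57, adjusted p = 5.6e-07). No ecd RNAi value of beat-Ic or ZnT35C came near a control value. CG14695 (FBgn0037850, 3R, 10878204 to 10879319), which overlaps Sodh2 on the other strand, had 794, 835, 733 and 748 with ecd RNAi, against 2.004, 0.979, 16.98 and 10.3 in control (7.04 ± 0.63, adjusted p = 1.5e-06). CG45086, within Galphaq on the same strand, had 155, 244, 391.8 and 244 with ecd RNAi, against 0, 0, 0 and 2.57 in control (adjusted p = 8.4e-04), so that 3 control libraries are listed at 0.

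Noncoding transcripts and pseudogenes supplied 4 of the 12 largest rises outside the list set aside, CR10102 included. lncRNA:CR44316 (FBgn0265375, 2R, 12320594 to 12320912) had 520.5, 476, 382 and 578 with ecd RNAi, against 0, 0, 4.30 and 3.497 in control (7.78 ± 0.63, adjusted p = 6.1e-07). CR43086 (FBgn0262532, 3L, 17868740 to 17870573), a pseudogene in the annotation, had 669.6, 612, 631 and 738 with ecd RNAi, against 11.95, 0, 3.53 and 9.44 in control (7.06 ± 0.67, adjusted p = 2.5e-06). Both stood below 13 in any control library. asRNA:CR45139 (FBgn0266632, 2R, 3943429 to 3949757), antisense to the magnesium transporter gene uex, had 1403, 1351, 1436 and 1717 with ecd RNAi, against 0, 21.9, 132 and 3.46 in control (7.09 ± 1.08, adjusted p = 1.3e-04), the widest control spread among these genes. Over all 256 long noncoding RNA genes tested, 59 rose and 34 fell, shares of 23% and 13.3%.

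The 12 largest falls outside that list included genes tied to the ecdysone timetable, a pair of serpins, a spliceosomal protein, a glue protein and genes of no described role, and they were led by CG46321 and SmD3. The list set aside held 7 falls larger than the smallest of these 12, namely asRNA:bsAS, aos, CR43482, fok, Pbp45, Hr3 and ImpE2. Blimp-1 (FBgn0035625, 3L, 5630983 to 5652094), an ecdysone-induced repressor that helps time the prepupal stage, had 370.5, 237, 20.4 and 200.2 normalized counts with ecd RNAi, against 5632, 6582, 4405 and 4327 in control (log2 fold change -5.21 ± 0.67, adjusted p = 3.4e-05). Eip78C (FBgn0004865, 3L, 21226609 to 21266503), an ecdysone-induced nuclear receptor, had 333, 283, 69.4 and 346 with ecd RNAi, against 3392, 3947, 3633 and 3281 in control (-4.02 ± 0.40, adjusted p = 3.8e-06). lncRNA:let7C (FBgn0263049, 2L, 18455717 to 18473132), the host transcript of mir-100, mir-let7 and mir-125 that is induced at the larval to pupal transition, had 161, 126, 32.2 and 235 with ecd RNAi, against 1849.8, 2215, 2362 and 1952 in control (-4.21 ± 0.45, adjusted p = 7.8e-06). In all 3, the lowest control value was several times the highest ecd RNAi value, and ecd RNAi replicate 3 was the lowest library.

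The serpins, inhibitors of serine proteases, gave a pair of these falls. Spn100A (FBgn0039795, 3R, 30690642 to 30692768) had 282, 92.8, 9.85 and 214 with ecd RNAi, against 3934, 4197, 3115 and 2464 in control (-5.24 ± 0.76, adjusted p = 8.5e-05). Spn43Aa (FBgn0024294, 2R, 7147692 to 7149289) had 524, 241, 70.01 and 512 with ecd RNAi, against 6067, 5883, 5117 and 4555 in control (-4.36 ± 0.48, adjusted p = 9.7e-06). For each serpin ecd RNAi replicate 3 was again the lowest library. wbl (windbeutel, FBgn0004003, 2R, 19249395 to 19250917), an endoplasmic reticulum protein needed for export of the sulfotransferase Pipe in the ovary, had 307, 211, 28.4 and 337 with ecd RNAi, against 2875, 2852, 2670.5 and 2280.0 in control (-4.06 ± 0.58, adjusted p = 8.4e-05). St2 (FBgn0037665, 3R, 9251843 to 9253514), named as a sulfotransferase, had 148, 69.3, 33.000 and 208 with ecd RNAi, against 2257, 1994, 1781 and 1525 in control (-4.33 ± 0.43, adjusted p = 3.9e-06). For wbl and St2, too, ecd RNAi replicate 3 was the lowest library. CG15905 (FBgn0034462, 2R, 19646483 to 19647645) had 164, 119.7, 62.4 and 136 with ecd RNAi, against 2195, 2243, 1826 and 1934 in control (-4.15 ± 0.23, adjusted p = 1.8e-08), a narrower spread than in the genes before it.

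CG6055 (FBgn0031918, 2L, 7466543 to 7472493) had 3.28, 2.53, 99.7 and 25.9 with ecd RNAi, against 373, 268, 245 and 265 in control (-4.32 ± 0.82, adjusted p = 7.5e-04), with ecd RNAi replicate 3 well above the other 3. CG46321 (FBgn0284237, 2R, 10205454 to 10227957), which lies within the ecdysone-induced gene Hr3 on the same strand, is listed at 0 in all ecd RNAi libraries, against 112, 119.7, 53.6 and 111 in control (adjusted p = 1.6e-08). SmD3, a core protein of spliceosomal particles, had 24.4, 29.6, 0 and 0 with ecd RNAi, against 272, 260.4, 143 and 249.9 in control (-5.41 ± 0.99, adjusted p = 5.5e-04), and 2 of its ecd RNAi values are listed at 0. SmD3 overlaps Oda on the other strand and its value is uncertain. Sgs7 (FBgn0003377, 3L, 11509861 to 11510247), a glue protein of the salivary gland, had 5.48, 2.57, 32.2 and 7.91 with ecd RNAi, against 134, 54.4, 443 and 231 in control (-4.20 ± 0.71, adjusted p = 3.2e-04). Salivary gland markers summed to 56.8 to 227 with ecd RNAi and 232 to 1313 in control, 5 of the 7 tested fell, and Sgs4, listed at 0 in all ecd RNAi libraries, had 10.02, 0.976, 51.6 and 33.4 in control. How much of the fall of Sgs7 goes with carried-over salivary gland was not tested.

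**Figure D2:**
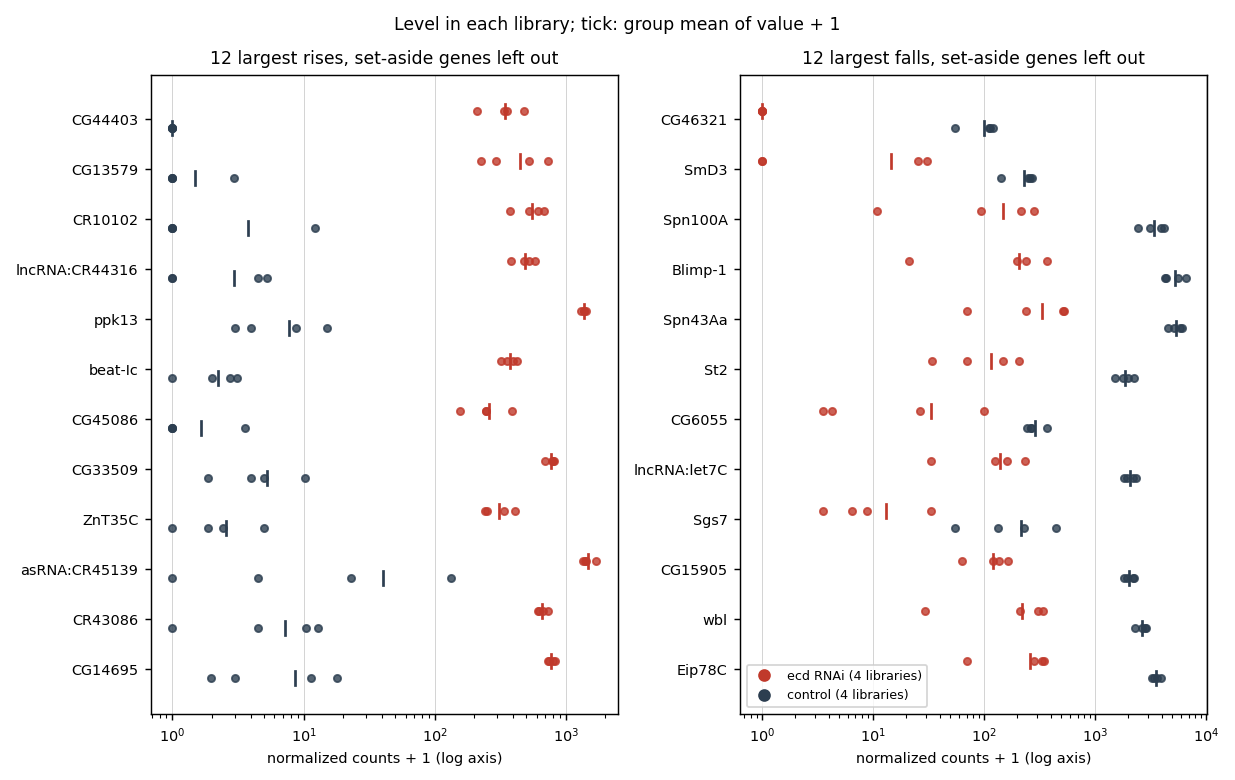
Normalized counts + 1 (log axis) in each library for the 12 largest rises and the 12 largest falls that remain once 77 well-known stress genes and genes already picked out, Dop2R among them, are set aside; red, ecd RNAi; dark, control; ticks, group means. Only genes whose groups do not overlap were eligible, and ppk13 stands at 1299.6 to 1421 with ecd RNAi against 1.99 to 14.1 in control.

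The 10 rises and 10 falls of smallest p were then taken from well expressed genes outside the list set aside. That ranking favours genes whose replicates agree closely and whose groups lie apart, so both traits follow from the choice. CG15784 (FBgn0029766, X, 5429571 to 5432526), with no described role given here, had 39520.0, 49647, 40263 and 32933 normalized counts with ecd RNAi, against 306, 390.0, 329 and 324 in control (log2 fold change 6.90 ± 0.14, adjusted p = 4.3e-12). Cul2 (FBgn0032956, 2L, 21658735 to 21663698), a cullin scaffold of ubiquitin ligases, had 18334, 16644, 16992 and 17342 with ecd RNAi, against 2911, 2925, 2824 and 2598 in control (2.62 ± 0.06, adjusted p = 4.3e-12). The transcript next to it, lncRNA:CR43144 (FBgn0262620, 2L, 21657625 to 21658249), had 3848, 3931, 3111 and 4115 with ecd RNAi, against 88.1, 71.9, 75.05 and 61.8 in control (5.64 ± 0.17, adjusted p = 1.1e-10), and it ends before Cul2 begins. CG15784 thus averaged 40591 ± 6878 with ecd RNAi and 337 ± 36.5 in control (SD, n = 4 each), and Cul2, which moved less, averaged 17328 ± 729 with ecd RNAi and 2815 ± 151 in control (SD, n = 4 each).

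CG2909 (FBgn0030189, X, 10326464 to 10328946) had 2136, 2058, 1853 and 2076 with ecd RNAi, against 126, 114.7, 147 and 105 in control (4.04 ± 0.10, adjusted p = 1.4e-11). Rdh1 (FBgn0033205, 2R, 7665828 to 7667343), named as a retinol dehydrogenase, had 3122, 3061, 2425 and 2884 with ecd RNAi, against 189, 201, 218 and 173 in control (3.87 ± 0.09, adjusted p = 1.4e-11). mIF3 (FBgn0033712, 2R, 12321238 to 12322797), the mitochondrial translation initiation factor, had 2454, 2057, 2018 and 1948 with ecd RNAi, against 295, 296, 254 and 301 in control (2.88 ± 0.08, adjusted p = 8.5e-11). Each of these rose more than 7-fold, and each overlaps a gene on the other strand (Gip, DCTN4-p62 and CG8841), so part of the reads could belong to the partner. spn-E (FBgn0003483, 3R, 15837419 to 15844415), a helicase of the piRNA pathway that silences transposons in the germline, had 2171, 2115, 1996 and 2060.5 with ecd RNAi, against 318, 332, 332 and 275 in control (2.73 ± 0.08, adjusted p = 8.1e-11), and it overlaps Pbp45 on the other strand. rad50, of the complex that holds broken DNA ends, had 4851, 4755, 4663 and 4705 with ecd RNAi, against 1464, 1357, 1487 and 1477 in control (1.71 ± 0.06, adjusted p = 1.9e-10), the tightest ecd RNAi replicates in this set, 4743 ± 80.7 (SD, n = 4).

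Among falls ranked in the same way, metabolic and adhesion genes stood beside genes of no described role. fbp (FBgn0032820, 2L, 19761587 to 19764136), fructose-1,6-bisphosphatase, had 385, 399.5, 386 and 449 with ecd RNAi, against 1544, 1431, 1289.7 and 1303 in control (-1.78 ± 0.08, adjusted p = 2.0e-09). Dtg (FBgn0038071, 3R, 12648058 to 12652910), named as a target of Dpp, had 995, 860.0, 757 and 922 with ecd RNAi, against 2891, 2797, 2908 and 2694 in control (-1.68 ± 0.08, adjusted p = 4.4e-09). Nrt (neurotactin, FBgn0004108, 3L, 16766072 to 16777465), a transmembrane adhesion protein, had 1260.3, 1204, 1068 and 1158 with ecd RNAi, against 3539.8, 3401, 3015 and 2934 in control (-1.46 ± 0.07, adjusted p = 7.4e-09). In all 3 the groups did not overlap, which the ranking by p favours.

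CG32447 (FBgn0052447, 3L, 21690612 to 21706365) had 915, 651, 664 and 822 with ecd RNAi, against 4516, 4759, 4598 and 4636 in control (-2.61 ± 0.13, adjusted p = 8.7e-09), and CG11905 had 239.6, 175, 162 and 182 with ecd RNAi, against 1423, 1573, 1216 and 1228 in control (-2.84 ± 0.14, adjusted p = 8.3e-09). Smaller changes were also free of overlap, as CG3902 with 1178, 1215, 1301 and 1194 with ecd RNAi, against 2556, 2589, 2289 and 2431 in control (-1.01 ± 0.06, adjusted p = 1.8e-08) and CG17272 with 459, 497, 466 and 547 with ecd RNAi, against 1368, 1311, 1266 and 1209.7 in control (-1.39 ± 0.07, adjusted p = 8.7e-09) show. CG17672 (-1.51 ± 0.08, adjusted p = 9.1e-09) and bs (-2.09 ± 0.11, adjusted p = 7.9e-09), the serum response factor of intervein cells, complete the 10 falls. The control values of CG3902 were at least 2289 and its ecd RNAi values at most 1301.

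The lists of genes by function differed widely in how many members rose or fell. Most genes given with values below were picked as the largest changes of their list, which favours gaps between the groups. Chitin and cuticle assembly had the largest share of rises, and septate junction proteins the largest share of falls, among lists with at least 9 members tested.

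**Figure D3:**
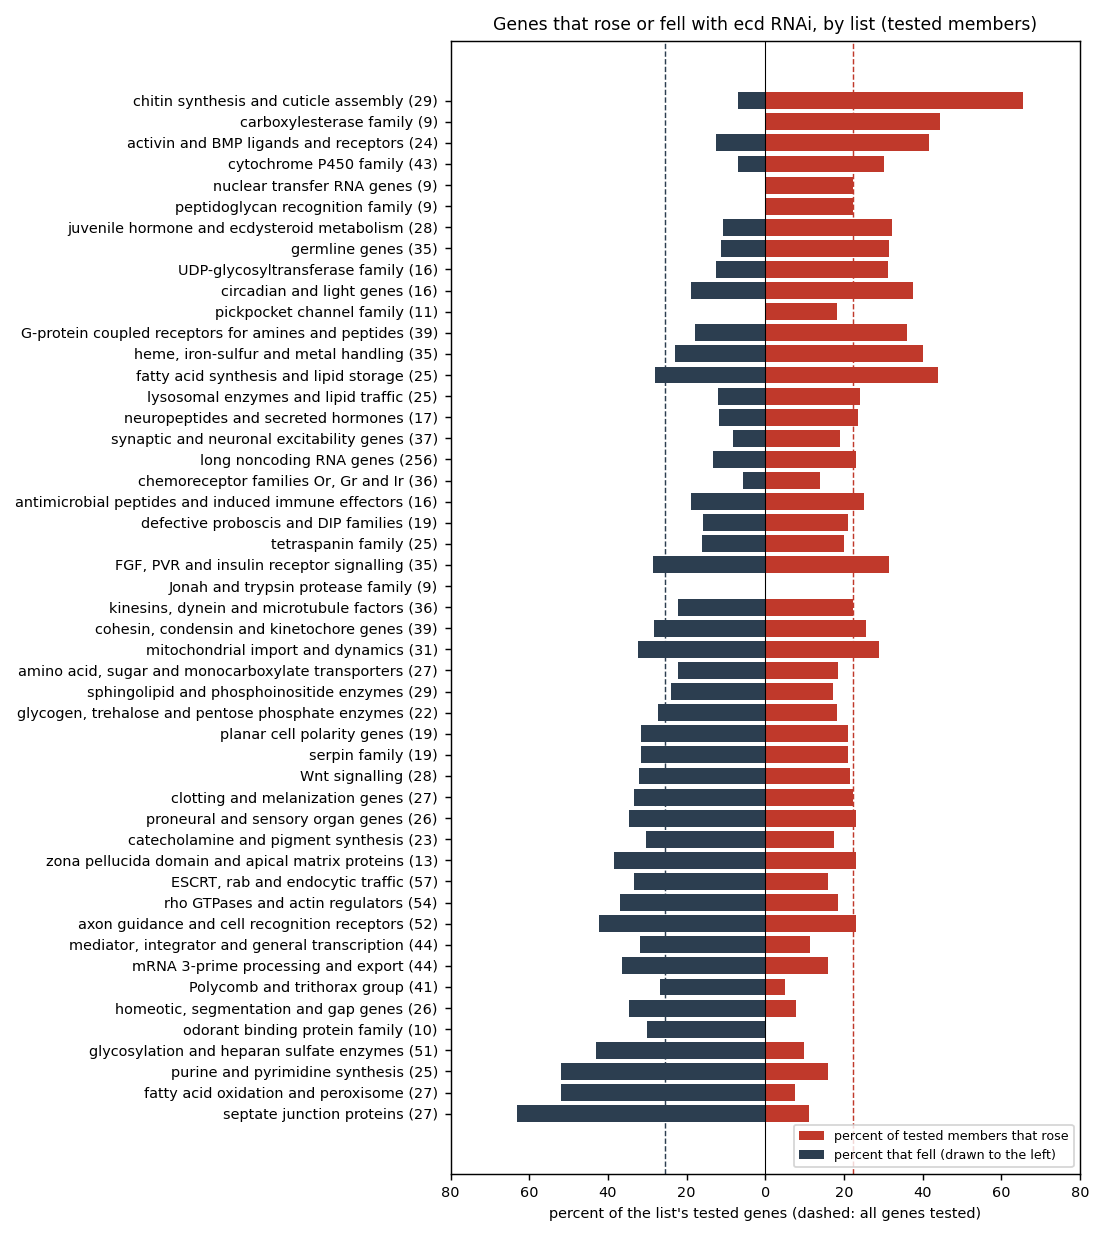
Percent of tested members that rose (to the right) and that fell (to the left) for each list with at least 9 tested members, the number tested in brackets; dashed lines mark all 10179 genes, 22.4% higher and 25.4% lower. Chitin synthesis and cuticle assembly reaches 65.5% higher and septate junction proteins 63.0% lower.

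Of 29 genes for chitin synthesis and cuticle assembly, 19 rose (65.5%) and 2 fell (6.9%), with a median change of 0.33. With the libraries rich in fat body left out 14 rose, and with those poor in it left out 14 rose. reb (rebuttal, FBgn0033667, 2R, 11904323 to 11912779), needed with its relative exp for chitin deposition, had 213, 189.6, 202 and 225 normalized counts with ecd RNAi, against 2.97, 3.93, 25.4 and 11.996 in control (log2 fold change 4.52 ± 0.50, adjusted p = 9.2e-06). Vajk3 (FBgn0028544, 2L, 13944756 to 13947476), of a small family of cuticle proteins, had 863, 869, 837 and 417 with ecd RNAi, against 78.5, 61.8, 44.4 and 109 in control (3.34 ± 0.31, adjusted p = 1.9e-06). obst-E (FBgn0031737, 2L, 5762553 to 5766142), a chitin binding protein that shapes larval cuticle, had 224, 308, 381 and 217 with ecd RNAi, against 18.8, 35.05, 72.5 and 73.000 in control (2.64 ± 0.37, adjusted p = 7.0e-05). Values of ecd RNAi exceeded all control values in these 3 genes, although ecd RNAi replicate 4 of Vajk3 was well below its group. Vajk3 and Vajk2 lie within Ance-3 on the other strand, so their levels are uncertain. The other members that rose were Vajk2, Cht6, snsl, obst-B, Idgf6, Idgf3, Cht7, Cht5, exp, verm, kkv (the chitin synthase), obst-A, serp, Idgf4, Cht2 and Gfat1. Cht10 (FBgn0250907, 2L, 22999574 to 23025915), a chitinase, went the other way with 13626, 12997, 9632 and 13271 with ecd RNAi, against 40334, 40394, 39740.5 and 40491 in control (-1.71 ± 0.11, adjusted p = 7.4e-08), and mmy, which makes the chitin precursor, changed by -0.26 ± 0.07 (adjusted p = 0.0119). Tracheal markers, a list that shares serp and verm with this one, summed to 40003 to 49339.6 with ecd RNAi and 38385 to 43686 in control.

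Proteins with a zona pellucida domain, which form the apical matrix under which cuticle is laid down, split: of 13 tested, 3 rose (23.1%) and 5 fell (38.5%). Without control replicate 3, 5 rose. dpy (dumpy, FBgn0053196, 2L, 4477462 to 4614300), a giant fibre protein that anchors epidermis to cuticle, had 39050.1, 47694, 68034 and 41529.8 with ecd RNAi, against 17019, 19669, 21555 and 22909.6 in control (1.25 ± 0.18, adjusted p = 8.0e-05). neo (neyo, FBgn0039704, 3R, 29819131 to 29825800), which shapes the apical side of embryonic epidermis, had 1169, 1082, 664 and 1161 with ecd RNAi, against 5939, 5906, 5391 and 4993 in control (-2.48 ± 0.16, adjusted p = 6.2e-08). mey (morpheyus), of the same family, had 789.8, 668, 424 and 639 with ecd RNAi, against 2463, 2444, 2227 and 1804 in control (-1.85 ± 0.16, adjusted p = 9.6e-07). dpy was thus higher in each ecd RNAi library while neo and mey were lower in each. mlt rose by 1.37 ± 0.13 on the log2 scale (adjusted p = 3.0e-06). dyl (dusky-like), known from wing hairs, had 136, 40.7, 69.4 and 118 with ecd RNAi, against 6.79, 6.73, 43.5 and 30.5 in control (2.29 ± 0.63, adjusted p = 0.00923), which overlap, and without the 4 libraries poor in fat body it no longer passed (1.29, adjusted p = 0.12).

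Osiris genes are a clustered family expressed when insects secrete cuticle, and 5 of 25 were above the filter. Of these 4 rose. Osi14 (FBgn0040279, 3R, 6299128 to 6300738) had 2008, 1592, 1784 and 1209.6 with ecd RNAi, against 107, 77.4, 68.5 and 88.4 in control (4.25 ± 0.18, adjusted p = 2.0e-09). Its neighbour Osi15 (FBgn0037424, 3R, 6301804 to 6303653) had 72.4, 87.7, 107 and 58.3 with ecd RNAi, against 0, 0.981, 2.12 and 1.72 in control (5.31 ± 0.69, adjusted p = 3.9e-05). Osi24 had 346, 307, 336 and 269.5 with ecd RNAi, against 634, 629, 417 and 518 in control (-0.79 ± 0.15, adjusted p = 7.4e-04), so that family members of adjacent position rose while a more distant one fell. For catecholamine and pigment synthesis, whose products tan and harden cuticle, 4 of 23 rose (17.4%) and 7 fell (30.4%), with a median of -0.11. amd (FBgn0000075, 2L, 19110154 to 19114110), needed for cuticle and related to dopa decarboxylase, had 2449, 2321, 2124 and 2122 with ecd RNAi, against 311, 240.4, 244 and 245 in control (3.12 ± 0.11, adjusted p = 2.8e-10). Tdc1, a tyrosine decarboxylase, had 269, 224, 285 and 274 with ecd RNAi, against 0, 0, 19.1 and 0 in control (adjusted p = 4.7e-04), and yellow-b had 687, 744, 729 and 812 with ecd RNAi, against 237, 219, 210.1 and 241 in control (1.71 ± 0.08, adjusted p = 5.1e-09). No control value of amd, Tdc1 or yellow-b reached an ecd RNAi value. ple, the tyrosine hydroxylase that starts the pathway, had 51.4, 5.17, 18.6 and 27.7 with ecd RNAi, against 109, 46.3, 128 and 122 in control (-2.21 ± 0.56, adjusted p = 0.0053), which overlap, and without the libraries rich in fat body it did not pass (-2.01, adjusted p = 0.109).

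Families of detoxifying enzymes rose in part. Of 43 cytochrome P450 genes tested 13 rose (30.2%) and 3 fell (6.98%), against 22.4% and 25.4% of all genes. The median change was 0.28, and 10 of the rises were at least 2-fold. Without control replicate 1 or ecd RNAi replicate 3, 5 fell, and under quantile normalization 7 fell. Cyp6d2 (FBgn0034756, 2R, 22652573 to 22654530), of the clade that metabolizes foreign compounds, had 5889, 5352, 4499 and 4546 normalized counts with ecd RNAi, against 62.7, 56.9, 91.8 and 46.3 in control (log2 fold change 6.31 ± 0.19, adjusted p = 1.1e-10). It overlaps nsr on the other strand. Cyp6a20 (FBgn0033980, 2R, 14882118 to 14884046), linked to aggression in adult males, had 186, 244, 169.7 and 287 with ecd RNAi, against 0.996, 1.96, 2.12 and 0.858 in control (6.49 ± 0.40, adjusted p = 4.4e-08). Cyp6a23, a short way from it, had 206, 144, 197 and 244 with ecd RNAi, against 12.95, 20.6, 25.4 and 19.7 in control (3.28 ± 0.31, adjusted p = 2.5e-06). In all 3 the lowest ecd RNAi library stood several times above the highest control library. Cyp9b1 had 22.3, 10.3, 76.3 and 56.3 with ecd RNAi, against 79.7, 125, 165 and 160.4 in control (-1.97 ± 0.52, adjusted p = 0.00725), just without overlap.

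UDP-glycosyltransferases, which couple sugars to small molecules for excretion, gave 5 rises (31.2%) and 2 falls (12.5%) among 16 tested, with a median of 0.41. Ugt302K1 (FBgn0040251, 3R, 11151026 to 11153849) had 6259, 5758, 5349 and 4648 with ecd RNAi, against 755, 902, 793 and 695 in control (2.80 ± 0.10, adjusted p = 3.1e-10), and Ugt36D1 (FBgn0032713, 2L, 18823548 to 18826716) had 521, 397, 391.8 and 432 with ecd RNAi, against 1035, 949, 953 and 965 in control (-1.17 ± 0.08, adjusted p = 2.0e-07). The pair thus moved in opposite directions, each without overlap. Among 9 carboxylesterases tested 4 rose (44.4%) and 0 fell, but 2 rose without control replicate 4, without ecd RNAi replicate 2 or without ecd RNAi replicate 3. alpha-Est3 had 367, 348, 348 and 313 with ecd RNAi, against 235, 199, 173 and 169 in control (0.83 ± 0.12, adjusted p = 6.4e-05). Without the low filter or at a mean of at least 50, the count of UDP-glycosyltransferases that rose was 8 or 2.

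Genes best known from neurons also separated the groups. Of 39 G-protein coupled receptors for amines and peptides, 14 rose (35.9%), 9 of them at least 2-fold, and 7 fell (17.9%), with a median of 0.32. Dop2R (FBgn0053517, X, 20004680 to 20062706), a dopamine receptor and the largest rise of the list, had 843, 2582, 3373 and 1689.9 normalized counts with ecd RNAi, against 4.20, 2.64, 5.89 and 3.65 in control (log2 fold change 8.56 ± 0.40, adjusted p = 3.9e-09). CG9570 overlaps it on the other strand. TkR99D (FBgn0004622, 3R, 29950796 to 29969447), a tachykinin receptor, had 155, 143, 172 and 143 with ecd RNAi, against 3.96, 1.96, 11.3 and 9.42 in control (4.55 ± 0.65, adjusted p = 8.0e-05). FMRFaR (FBgn0035385, 3L, 3001716 to 3011860), which binds FMRFamide peptides, had 26.4, 42.8, 84.6 and 50.7 with ecd RNAi, against 0.904, 0, 0 and 1.83 in control (4.98 ± 0.74, adjusted p = 1.1e-04). All 3 were close to 0 in control, while the amine and peptide receptors Octbeta2R, AstA-R1, Octalpha2R, CCHa2-R and CCAP-R also rose. rk (rickets), the receptor of the tanning hormone bursicon, had 80.3, 65.8, 70.5 and 127 with ecd RNAi, against 186, 215, 231 and 189 in control (-1.29 ± 0.23, adjusted p = 4.7e-04). Dh31-R had 644, 716, 452 and 775 with ecd RNAi, against 1122, 1164, 1133 and 1110.2 in control (-0.84 ± 0.13, adjusted p = 2.0e-04) and mthl5 had 561, 425, 170.2 and 472 with ecd RNAi, against 1002, 987, 724 and 646 in control (-1.15 ± 0.30, adjusted p = 0.00682). These 3 receptors were lower in every ecd RNAi library than in any control library.

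In the list of synaptic and excitability genes 7 of 37 rose and 3 fell, shares of 18.9% and 8.11% that are below those of all genes (7 fell under quantile normalization), but 6 of the rises were at least 2-fold. unc-13 (FBgn0025726, 4, 867824 to 912331), which primes synaptic vesicles for release, had 61482, 59865, 60419 and 58303 with ecd RNAi, against 10486, 10810.0, 11848 and 12455 in control (2.40 ± 0.08, adjusted p = 3.1e-10), and asRNA:CR43425, asRNA:CR44029 and CR43361 overlap it on the other strand. Snap25 (FBgn0011288, 3L, 24074180 to 24299205), the partner SNARE protein of vesicle fusion, had 5771, 7515, 6954 and 6608 with ecd RNAi, against 464, 601, 544 and 571 in control (3.62 ± 0.11, adjusted p = 1.5e-10), and lncRNA:CR45159 overlaps it on the other strand. SK, a calcium-gated potassium channel, had 887, 1470.0, 1452 and 1276 with ecd RNAi, against 307, 400.1, 290.1 and 261 in control (2.00 ± 0.16, adjusted p = 5.8e-07). In all 3 the groups were wide apart; the remaining rises were Syt7, cac, nAChRalpha4 and sei. Markers of neurons and glia summed to 5615 to 6787 with ecd RNAi and 3246 to 4873 in control, a gap that comes from loco: without it they summed to 1356 to 3472 with ecd RNAi and 1076 to 2889 in control, which overlap. Of 11 tested, 3 rose, and these were moody, loco and onecut; moody is also in the receptor list, with 386, 422, 317 and 437 with ecd RNAi, against 64.9, 70.3, 70.3 and 75.2 in control. The defining neuronal markers elav, nSyb and brp did not pass, with elav at 522, 581, 945 and 559 with ecd RNAi, against 380.1, 359, 578 and 669 in control. The part of the marker genes in these results was not tested.

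Cell recognition proteins followed no common direction. Dscam2 (FBgn0265296, 3L, 7159199 to 7189931), which mediates repulsion between like neurites, had 122, 53.6, 132 and 155 with ecd RNAi, against 1.79, 3.07, 7.35 and 0 in control (5.12 ± 0.66, adjusted p = 3.4e-05). dpr8, an immunoglobulin protein that pairs with DIP partners at synapses, had 167, 165, 261 and 167 with ecd RNAi, against 16.8, 17.7, 16.2 and 27.4 in control (3.22 ± 0.38, adjusted p = 1.5e-05). DIP-lambda, of the partner family, had 1489.7, 1696, 1939.8 and 1642 with ecd RNAi, against 316, 448, 438 and 552 in control (1.97 ± 0.17, adjusted p = 9.6e-07). These rose without overlap, but over both families 4 of 19 rose (21.1%) and 3 fell (15.8%), shares below those of all genes. In the wider list of guidance and recognition receptors 12 of 52 rose and 22 fell (42.3%), with a median of -0.15. NetA (FBgn0015773, X, 14604012 to 14653928), a secreted netrin, had 201, 175, 193 and 243 with ecd RNAi, against 973, 989, 939 and 897 in control (-2.23 ± 0.13, adjusted p = 2.8e-08), and NetB and their receptor fra also fell. Con (connectin), a homophilic adhesion protein, had 110.4, 112, 56.1 and 182 with ecd RNAi, against 292, 257, 280.3 and 268 in control (-1.36 ± 0.27, adjusted p = 0.00102). Among the chemoreceptor families 5 of 36 rose (13.9%) and 2 fell (5.56%), shares below those of all genes. Ir76a rose, with 282, 273, 349 and 365 with ecd RNAi, against 63.003, 50.7, 91.8 and 56.2 in control (2.29 ± 0.17, adjusted p = 3.5e-07). The falls numbered 0 without control replicate 3 or 4 or ecd RNAi replicate 1 or 2, and 4 with the libraries rich in fat body left out.

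Enzymes of hormone metabolism gave 9 rises (32.1%) and 3 falls (10.7%) among 28 tested, with a median of 0.17. JhI-26 (FBgn0028424, 2R, 16289320 to 16291333), named for its induction by juvenile hormone, had 609, 875, 903 and 852 normalized counts with ecd RNAi, against 12.9, 0, 13.4 and 18.01 in control (log2 fold change 6.67 ± 1.16, adjusted p = 3.9e-04). On the other strand asRNA:CR43730 overlaps it. nvd (neverland, FBgn0287185, 3L, 24324866 to 24401655), which converts cholesterol in the first step of ecdysteroid synthesis, had 76.9, 114, 181 and 114 with ecd RNAi, against 18.8, 12.8, 31.7 and 23.1 in control (2.44 ± 0.32, adjusted p = 4.1e-05). spok (spookier, FBgn0086917, 3R, 3322810 to 3354486), of the next step of that synthesis, had 39.02, 109.6, 76.7 and 103 with ecd RNAi, against 1.98, 10.8, 22.5 and 17.99 in control (2.79 ± 0.67, adjusted p = 0.00385). None of these overlapped, although levels of nvd and spok were low in both groups. dib, a later enzyme of the pathway, changed by -0.89 ± 0.29 (adjusted p = 0.0241), and the juvenile hormone epoxide hydrolases Jheh1, Jheh2 and Jheh3 rose. With the libraries rich in fat body left out, 8 rose and 1 fell.

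The lists of lipid metabolism differed in direction. Of 25 genes for fatty acid synthesis and storage, 11 rose (44%) and 7 fell (28%), with a median of 0.21. Of 27 genes for fatty acid oxidation and peroxisomes, 2 rose and 14 fell (51.9%), with a median of -0.29. AcCoAS (FBgn0012034, 3L, 21270722 to 21280243), which makes acetyl-CoA from acetate, had 521, 461, 516 and 562 normalized counts with ecd RNAi, against 118, 112, 204 and 185 in control (log2 fold change 1.77 ± 0.18, adjusted p = 4.1e-06). FASN1, fatty acid synthase, had 2152, 2214, 2458 and 2382 with ecd RNAi, against 1184, 1365, 1438 and 1563 in control (0.74 ± 0.09, adjusted p = 1.8e-05), and Lpin, which makes diacylglycerol, had 2014, 1929, 2258 and 1733 with ecd RNAi, against 1032, 925, 1019.6 and 1106 in control (0.95 ± 0.09, adjusted p = 1.6e-06). All 3 rose without overlap. bmm (brummer, FBgn0036449, 3L, 14776496 to 14786412), the lipase of lipid droplets, had 44.6, 76.1, 51.9 and 57.3 with ecd RNAi, against 209.9, 161, 142 and 192 in control (-1.61 ± 0.19, adjusted p = 2.0e-05).

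For oxidation, Mcad (FBgn0035811, 3L, 7719350 to 7721472), the medium-chain acyl-CoA dehydrogenase, had 1896, 1949.6, 1658 and 1635 with ecd RNAi, against 3722, 3549, 3041 and 3308 in control (-0.93 ± 0.07, adjusted p = 4.5e-07). Etfb, which carries its electrons, had 1753, 1675, 1461 and 1532 with ecd RNAi, against 2951, 2907, 2608 and 2703 in control (-0.80 ± 0.08, adjusted p = 2.3e-06). whd (withered), carnitine palmitoyltransferase, had 966, 885, 769 and 974 with ecd RNAi, against 1487, 1423, 1515 and 1461 in control (-0.72 ± 0.08, adjusted p = 8.3e-06). These 3 fell by less than 2-fold with no overlap, as did the trifunctional protein genes Mtpalpha and Mtpbeta. The fat body sums above overlapped between the groups. With the libraries rich in fat body left out the calls of all 7 genes named stood, and with those poor in it left out 4 of the first list fell. The 2 rises on the oxidation list, Pex6 and Pex10, became 1 without control replicate 1, 2 or 4 or ecd RNAi replicate 1 or 2.

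Of enzymes of glycogen, trehalose and the pentose phosphate path, 4 of 22 rose (18.2%) and 6 fell (27.3%), near the shares of all genes. Glyp (FBgn0004507, 2L, 2130813 to 2137296), glycogen phosphorylase, had 7311, 6860.2, 7078 and 5965 with ecd RNAi, against 3265, 2874, 2825 and 2992 in control (1.18 ± 0.07, adjusted p = 6.2e-08), against the fall of fbp given above. Transporters of amino acids, sugars and monocarboxylates gave 5 rises (18.5%) and 6 falls (22.2%) among 27, shares below those of all genes. Of these 11 changes 7 were at least 2-fold. CG5535 (FBgn0036764, 3L, 17852624 to 17856794) had 1644, 1683, 1608 and 1562 with ecd RNAi, against 349.9, 339, 341 and 366 in control (2.21 ± 0.07, adjusted p = 2.8e-10). mnd (minidiscs), an amino acid transporter needed for disc growth, had 473, 304, 214 and 291 with ecd RNAi, against 1339, 1364, 1357 and 1312 in control (-2.12 ± 0.18, adjusted p = 8.4e-07). nebu (nebulosa, FBgn0036316, 3L, 12824880 to 12843106), a sugar transporter, had 1183, 687, 278 and 967 with ecd RNAi, against 4755, 4815, 4506 and 3957 in control (-2.71 ± 0.33, adjusted p = 2.3e-05). CG5535 was higher and mnd and nebu were lower in every ecd RNAi library, and Glut1, Mct1 and path also fell. acs had 28.9, 14.2, 8.63 and 4.94 with ecd RNAi, against 118, 122, 117 and 91.8 in control (-3.15 ± 0.40, adjusted p = 3.1e-05).

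Nucleotide synthesis leaned to lower levels, with 4 of 25 members higher, 13 lower (52.0%) and a median of -0.24. ras (raspberry), the first enzyme from IMP to guanine nucleotides, had 2929, 3069.8, 2399 and 2548 with ecd RNAi, against 4518, 4368, 4148 and 4128 in control (-0.65 ± 0.07, adjusted p = 9.4e-06). Paics, of purine synthesis, had 2387, 2667, 2290.2 and 2469 with ecd RNAi, against 3707, 3539, 3774 and 3609 in control (-0.58 ± 0.05, adjusted p = 1.9e-06). The falls were modest, all less than 2-fold over the list, and without overlap in ras and Paics. In heme, iron-sulfur and metal handling 14 of 35 rose (40%) and 8 fell (22.9%), with a median of -0.05. Nfs1 (FBgn0032393, 2L, 11999654 to 12001244), the cysteine desulfurase that supplies sulfur for iron-sulfur clusters, had 3136, 2929, 2712 and 2480.5 with ecd RNAi, against 1118, 991, 880.1 and 955 in control (1.51 ± 0.08, adjusted p = 1.6e-08). ZnT77C, a zinc transporter, had 179, 133, 160.2 and 184 with ecd RNAi, against 481, 604, 586 and 477 in control (-1.70 ± 0.13, adjusted p = 4.9e-07), opposite to ZnT35C. Cerk, ceramide kinase, had 3749, 3190.3, 3262 and 3021 with ecd RNAi, against 1649.7, 1411, 1421 and 1484 in control (1.15 ± 0.07, adjusted p = 8.2e-08), and Inos, which makes inositol phosphate from glucose phosphate, had 1228, 1052, 836 and 952 with ecd RNAi, against 2630.5, 2623, 2199 and 2268 in control (-1.27 ± 0.11, adjusted p = 7.8e-07).

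Genes of the epithelium itself fell more often than they rose. Septate junctions seal the sides of insect epithelial cells, and 17 of 27 tested members fell (63.0%) while 3 rose, with a median of -0.27. nrm (neuromusculin, FBgn0262509, 3L, 22998372 to 23040300), an immunoglobulin protein of the list, had 305, 415, 541 and 537 normalized counts with ecd RNAi, against 1373, 1266, 1321 and 1162 in control (log2 fold change -1.54 ± 0.15, adjusted p = 3.7e-06). nrv1, a sodium pump beta subunit, had 1839, 1684, 1302 and 1747 with ecd RNAi, against 2986, 3012, 2871 and 2719.6 in control (-0.83 ± 0.09, adjusted p = 1.3e-05). crok (crooked), a Ly6 protein needed to assemble the junction, had 1029, 1077, 782 and 1038 with ecd RNAi, against 1638, 1603, 1544 and 1404 in control (-0.66 ± 0.10, adjusted p = 1.4e-04). Core members Nrx-IV, cora, Lac, kune and Atpalpha fell as well, each by less than 1 on the log2 scale, and 1 member, nrm, fell at least 2-fold. scrib (scribble), of the polarity module, went up with 13236, 13604, 15586 and 11844 with ecd RNAi, against 9645, 8882, 8942 and 9285 in control (0.56 ± 0.11, adjusted p = 7.5e-04). Gap junctions are built of innexins, and ogre (5337, 5799, 4729 and 4565 with ecd RNAi, against 10111, 9479, 7819 and 8608 in control; -0.82 ± 0.09, adjusted p = 9.0e-06) and Inx2 (20698, 22090.1, 18092 and 19781 with ecd RNAi, against 32336, 31617, 29774 and 29990.3 in control; -0.62 ± 0.08, adjusted p = 2.1e-05) fell; 3 of 5 tested innexins fell, and 1, shakB, rose, or 0 under the replicate block and without control replicate 1 or ecd RNAi replicate 1, 2 or 3.

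Planar polarity, which orients wing hairs, had 4 rises (21.1%) and 6 falls (31.6%) among 19, near the shares of all genes. Without control replicate 4, ecd RNAi replicate 1 or ecd RNAi replicate 2, 2 rose. nmo (nemo, FBgn0011817, 3L, 7979046 to 8054147), a kinase of this system, had 2865, 3256, 2045 and 2915 with ecd RNAi, against 6233, 7407, 7142 and 7519 in control (-1.37 ± 0.14, adjusted p = 4.9e-06). pk (prickle), a core component, had 2979.9, 2902, 3125 and 2995 with ecd RNAi, against 5842, 6466, 6368 and 6262 in control (-1.05 ± 0.10, adjusted p = 3.1e-06), and overlaps several genes on the other strand. Actin regulators fell in 20 of 54 cases (37.0%) and rose in 10, or in 5 with the libraries poor in fat body left out. Their median was -0.05, beside -0.04 for all genes. sn (singed), the bundling protein fascin, had 3711, 3821, 2910.4 and 4147 with ecd RNAi, against 7911, 7668, 7014 and 7028 in control (-1.03 ± 0.10, adjusted p = 3.3e-06). Arp2, of the Arp2/3 complex that branches filaments, had 2816, 2975, 2361 and 2770.0 with ecd RNAi, against 4626, 4249.7, 4084 and 4041 in control (-0.64 ± 0.07, adjusted p = 7.2e-06), and Arp3, Arpc2, Arpc4 and Arpc5 of the same complex fell. tsr (twinstar), cofilin, had 11750.1, 12225, 8877 and 12125 with ecd RNAi, against 18298, 17980.2, 16660.1 and 15846 in control (-0.62 ± 0.11, adjusted p = 4.2e-04). Other members of the list rose, as cher (filamin) with 20947, 22525, 22776 and 18709.9 with ecd RNAi, against 12372, 11460.2, 11506 and 11742 in control (0.85 ± 0.09, adjusted p = 9.5e-06) and Zasp52 with 7478, 8274, 8779 and 7993 with ecd RNAi, against 3715, 3966, 4061 and 3918 in control (1.05 ± 0.12, adjusted p = 1.7e-05).

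Enzymes that glycosylate secreted and membrane proteins fell in 22 of 51 cases (43.1%), 5 of them at least 2-fold, and 5 rose (3 with the libraries poor in fat body left out), with a median of -0.18. Beside wbl, GlcAT-P, a glucuronyltransferase, had 60.2, 101, 109 and 66.1 with ecd RNAi, against 302, 295, 342 and 338 in control (-1.96 ± 0.18, adjusted p = 2.1e-06). Pgant9, which starts O-linked mucin chains, had 1675, 1541, 1499 and 1622 with ecd RNAi, against 4287, 4283, 4333 and 3828 in control (-1.40 ± 0.09, adjusted p = 6.1e-08). Both were lower in all ecd RNAi libraries, as were the oligosaccharyltransferase subunits Ost48, OstDelta and Stt3B. Endocytic and trafficking genes fell in 19 of 57 cases (33.3%) and rose in 9 (15.8%), or in 15 under quantile normalization or array weights. Their median of -0.04 was that of all genes. Clc, clathrin light chain, had 2315, 2500.2, 1832 and 2031 with ecd RNAi, against 4092, 3938, 3655 and 3464 in control (-0.81 ± 0.09, adjusted p = 1.0e-05), and Rab27, of regulated secretion, had 872, 833, 921 and 752 with ecd RNAi, against 369, 367, 358 and 375 in control (1.20 ± 0.09, adjusted p = 2.5e-07). The clathrin adaptor genes AP-2mu, AP-2sigma and AP-2alpha and the heavy chain Chc fell too.

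Tetraspanins of the Tsp42E cluster on 2R took opposite directions over a short distance. Tsp42Ed (FBgn0029507, 2R, 7009498 to 7011739) had 417, 386, 383 and 323 with ecd RNAi, against 3.58, 2.65, 40.05 and 15.9 in control (5.18 ± 0.67, adjusted p = 3.4e-05). Tsp42Ei (FBgn0033130, 2R, 7035125 to 7036949) had 5.18, 1.33, 8.90 and 3.07 with ecd RNAi, against 49.5, 61.9, 45.8 and 44.4 in control (-3.38 ± 0.46, adjusted p = 5.0e-05). Neither overlapped between groups, and Tsp42El, Tsp42Ee and Tsp42Ea rose. In all 5 of 25 tetraspanins rose (20%) and 4 fell (16%), shares below those of all genes.

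Several signals that pattern and grow the disc, and proteins that modulate them, separated the groups. Among activin and BMP ligands, receptors and modulators 10 of 24 rose (41.7%) and 3 fell; without ecd RNAi replicate 1, 6 fell. cv-2 (crossveinless 2, FBgn0000395, 2R, 21355015 to 21379464), which binds BMP at the receptor during crossvein formation, had 7835, 7015, 6497 and 6405 normalized counts with ecd RNAi, against 1780.2, 1716, 1625 and 1755 in control (log2 fold change 2.01 ± 0.07, adjusted p = 4.7e-10). dlp (dally-like), a heparan sulfate proteoglycan, had 8003, 9083, 8543 and 7985 with ecd RNAi, against 4811, 4902, 4732 and 4894 in control (0.80 ± 0.06, adjusted p = 1.9e-07). tok (tolkin), a protease that frees BMP from Sog, had 4514, 4704, 3691 and 4302 with ecd RNAi, against 7673, 6976, 6945 and 7137 in control (-0.74 ± 0.07, adjusted p = 2.0e-06). cv-2 was about 4-fold higher in every library while its list had a median of 0.07.

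In the Wnt list 6 of 28 rose (21.4%) and 9 fell (32.1%), near the shares of all genes. Wnt2 (FBgn0004360, 2R, 9494166 to 9503188) had 654, 544, 492 and 539 with ecd RNAi, against 1540.1, 1673, 1609 and 1338 in control (-1.47 ± 0.10, adjusted p = 1.7e-07), and Wnt4 (FBgn0010453, 2L, 7255419 to 7277171) had 135, 90.3, 90.3 and 176 with ecd RNAi, against 338, 347, 390.3 and 335 in control (-1.57 ± 0.19, adjusted p = 1.8e-05). Swim (FBgn0034709, 2R, 22189817 to 22202671), a secreted protein that binds Wingless, had 3016, 2903, 2837 and 2823 with ecd RNAi, against 126, 132, 309 and 177 in control (4.05 ± 0.23, adjusted p = 2.2e-08). The 2 ligands were thus lower and Swim higher without overlap, with wg itself, at 2987, 3252, 2324 and 2945 with ecd RNAi, against 3055, 3152, 2696 and 2839 in control, not past the test (adjusted p = 0.764). bnl (branchless, FBgn0014135, 3R, 19794073 to 19836817), the FGF that guides tracheal branches, had 865, 803, 1276 and 955 with ecd RNAi, against 293, 307, 329.6 and 329 in control (1.61 ± 0.13, adjusted p = 6.9e-07), while its receptor btl had 235, 258, 249 and 204 with ecd RNAi, against 329, 306, 384 and 351 in control (-0.53 ± 0.10, adjusted p = 7.2e-04). REPTOR (FBgn0039209, 3R, 24557368 to 24582864), a factor of the response to low TORC1 activity, had 2800.3, 3106, 3313 and 2557 with ecd RNAi, against 846, 751, 875 and 914 in control (1.79 ± 0.10, adjusted p = 2.2e-08). ImpL2, a secreted binder of insulin-like peptides, had 1848, 1128, 941 and 994 with ecd RNAi, against 541, 624, 493 and 595 in control (1.07 ± 0.21, adjusted p = 9.8e-04). The last 2 rose in a list of 35 with 11 rises (31.4%) and 10 falls (28.6%), or 6 falls with the libraries rich in fat body left out.

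Patterning and sensory organ genes fell in part. Among homeotic, segmentation and gap genes 2 of 26 rose and 9 fell (34.6%), with a median of -0.23. al (aristaless, FBgn0000061, 2L, 378112 to 387439), a homeodomain factor of the distal appendage, had 397, 338, 410.5 and 342 with ecd RNAi, against 1064, 1051, 967 and 1012 in control (-1.46 ± 0.10, adjusted p = 1.1e-07). Dll (Distal-less) had 2184, 1804, 2672 and 2229 with ecd RNAi, against 3874, 3976, 4085 and 3772 in control (-0.83 ± 0.12, adjusted p = 6.8e-05), and both were lower in all ecd RNAi libraries. Of 26 proneural and sensory organ genes 6 rose (23.1%) and 9 fell (34.6%). sens (senseless, FBgn0002573, 3L, 13396228 to 13401125), which marks sensory organ precursors, had 35.7, 18.1, 18.5 and 19.7 with ecd RNAi, against 213, 206, 238 and 181 in control (-3.18 ± 0.21, adjusted p = 8.4e-08). sc (scute), a proneural factor, had 389, 409.5, 353 and 429.6 with ecd RNAi, against 824, 797, 852 and 781 in control (-1.04 ± 0.07, adjusted p = 2.0e-07). ase, ac, Poxn and sv also fell. insc (inscuteable, FBgn0011674, 2R, 20821262 to 20836028), which orients divisions of neural precursors, had 2363, 1964, 1890.1 and 2164 with ecd RNAi, against 438, 561, 604 and 547 in control (1.97 ± 0.16, adjusted p = 6.4e-07), and chn (charlatan), a regulator of achaete and scute, had 6377, 6892, 7294 and 5965 with ecd RNAi, against 3044, 2909, 2909.7 and 2928 in control (1.17 ± 0.07, adjusted p = 3.8e-08). Thus sens and sc were low in the libraries in which insc and chn were high.

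Germline genes gave 11 rises (31.4%) and 4 falls (11.4%) among 35, with a median of 0.14. Besides spn-E, the piRNA pathway genes qin, AGO3, piwi and vret rose, while zuc, shu and armi fell. c(3)G (FBgn0000246, 3R, 15789473 to 15792579), of the synaptonemal complex of meiosis, had 494, 495, 433 and 477 with ecd RNAi, against 181, 151, 203 and 156 in control (1.46 ± 0.10, adjusted p = 1.9e-07). png, a kinase of egg activation, had 67.7, 51.5, 114 and 85.9 with ecd RNAi, against 18.04, 33.3, 50.9 and 48.97 in control (1.10 ± 0.35, adjusted p = 0.0194), but did not pass without control replicate 1 (0.80, adjusted p = 0.0554) or without ecd RNAi replicate 3 (0.91, adjusted p = 0.0588). nxf2 (FBgn0036640, 3L, 16576859 to 16580306), an export factor that works with Piwi in transposon silencing, had 1328, 1492, 1352 and 1478 with ecd RNAi, against 729, 684, 786 and 805 in control (0.91 ± 0.07, adjusted p = 5.3e-07). Nxt1 (FBgn0028411, 2R, 23811321 to 23811974), the partner of nxf2 and of the mRNA exporter sbr, had 1971, 1912, 1710.1 and 1755 with ecd RNAi, against 975, 882, 876 and 888 in control (1.02 ± 0.08, adjusted p = 4.5e-07). Both rose without overlap. In their list of mRNA processing and export 7 of 44 rose (15.9%), or 4 with the libraries poor in fat body left out, and 16 fell (36.4%).

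Immune genes were mixed. Of 16 genes tested for antimicrobial peptides and induced immune effectors 4 rose (25%) and 3 fell (18.8%), with a median of -0.42. Among thioester proteins, which mark microbes for uptake, Tep4, Tep3 and Tep2 rose. Tep4 (FBgn0041180, 2L, 19548507 to 19556451) had 10703, 10942, 10080.0 and 10372 with ecd RNAi, against 4415, 4353, 4458 and 4169 in control (1.27 ± 0.05, adjusted p = 7.4e-10), Tep3 rose by 0.87 ± 0.07 and Tep2 by 0.66 ± 0.06. The ecd RNAi values of all 3 exceeded the control values. BaraA1, an induced immune peptide gene, is listed at 0 in all ecd RNAi libraries, against 15.2, 26.99, 124 and 41.7 in control (adjusted p = 6.6e-04); a near-identical copy, BaraA2, may share its reads. In clotting and melanization 6 of 27 rose (22.2%) and 9 fell (33.3%). Tg (FBgn0031975, 2L, 8011405 to 8026898), the transglutaminase that crosslinks clots, had 638, 619, 825 and 490.0 with ecd RNAi, against 21.03, 1.98, 12.1 and 11.3 in control (5.96 ± 0.48, adjusted p = 6.1e-07). psh (persephone), a protease upstream of Toll, had 213, 175, 179 and 198 with ecd RNAi, against 5.97, 9.81, 22.6 and 21.4 in control (3.76 ± 0.56, adjusted p = 1.1e-04). MP1, a melanization protease, had 674, 783, 494 and 700.1 with ecd RNAi, against 2071, 2043, 1835 and 1748 in control (-1.55 ± 0.12, adjusted p = 3.4e-07). PPO1, prophenoloxidase 1 of crystal cells, had 66.8, 79.9, 78.9 and 27.6 with ecd RNAi, against 373, 284, 110.0 and 197 in control (-1.89 ± 0.40, adjusted p = 0.00175). Beside these stand the hemocyte sums given above, lower with ecd RNAi by a gap that comes from Ppn, and other crystal cell markers. PPO2 had 97.96, 95.4, 117 and 31.6 with ecd RNAi, against 318, 253, 103.7 and 211 in control (-1.40 ± 0.43, adjusted p = 0.0159). lz had 7.80, 14.2, 14.8 and 50.4 with ecd RNAi, against 3.96, 3.93, 16.2 and 5.14 in control (1.35 ± 0.67, adjusted p = 0.118), which overlap, and it did not pass; the part of blood cells in the falls of PPO1 and MP1 was not tested.

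Gene structure went with direction. Among coding genes other than the replication-dependent histone genes, 31.2% of those with 10 or more introns rose and 17.2% fell. Genes with 1 intron showed the reverse, 16.7% higher and 27.8% lower, and genes with 0 introns 21% higher and 23.8% lower. The 808 genes with 10 or more introns had a median level of 2070 normalized counts over the 12 libraries, against 403 for the 1563 genes with 1 intron, so intron number went with level. By length, with histone and noncoding genes kept, 18.2% of the shortest of 5 equal classes, 55 to 1248 bases, rose and 29.4% fell. In the longest class, 8308 to 1965857 bases, 30.2% rose and 21.4% fell. The part of level, length and intron number in this pattern was not tested. The histone genes without introns, 101 in all, included 87 that fell and 0 that rose, but many of their rows are identical copies. The length classes kept these genes, and also small nucleolar RNA genes, of which 69.6% rose. Length was thus not separated from gene class, and the part of gene class in the length shares was not tested.

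**Figure D4:**
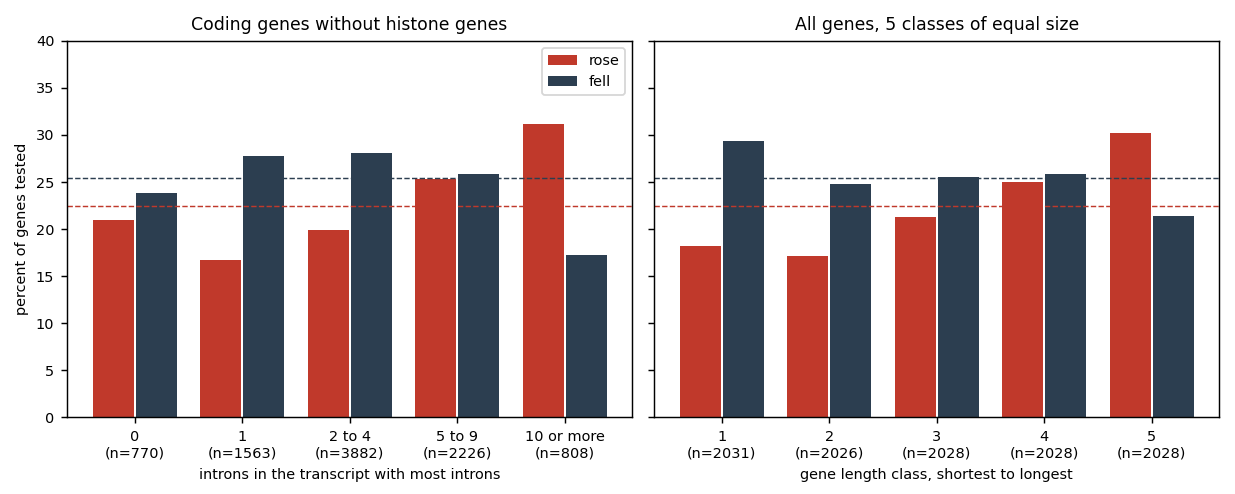
Percent of tested genes that rose (red) and fell (dark) with ecd RNAi, by number of introns in coding genes without histone genes and by length class of all genes; n in brackets, dashed lines for all genes. Rises reach 31.2% with 10 or more introns and 30.2% in the longest class.

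Some genes with large rises lay next to each other. Of 792 genes at least 2-fold higher that have a position, 39.6% had a direct neighbour among the tested genes that was also at least 2-fold higher, against 12.2% of all other genes, or 38.2% against 12.4% with genes of identical values left out. For genes at least 2-fold lower the shares were 37.4% and 6.49%, or 24.3% and 6.30% with histone genes left out. Genes that overlap each other were kept in all these shares. There were 14 runs of 4 or more adjacent rises, the longest of 7. A run on 3R held side-VI, mAcon2, Ugt302K1, Ugt302E1, Ugt302C1, Ugt35A1 and Ugt303A1, from 10972381 to 11177910, with log2 fold changes of 1.39 to 4.56. On 2L, CG33510, CG33509, ppk13 and CG14397 lay within 21082643 to 21094864. A further run on 2L, 13914725 to 13956188, held Ance-3, CG42711, Vajk2 and Vajk3, while Ance and Ance-2 just before it fell. CG42711, Vajk2 and Vajk3 lie within Ance-3 on the other strand, so reads may be shared and this run is uncertain. Near Cyp6d2 on 2R, nsr, CG30196 and CG43326 rose as well, from 22650556 to 22656998, but nsr overlaps Cyp6d2 on the other strand and is uncertain. On X, a run of 7 included lky, fd19B and Or19b, all listed at 0 in control. Runs made of pre-mod(mdg4) or U6 snRNA copies rest on identical rows and are uncertain. Of 7 runs of falls 6 held histone genes.

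**Figure D5:**
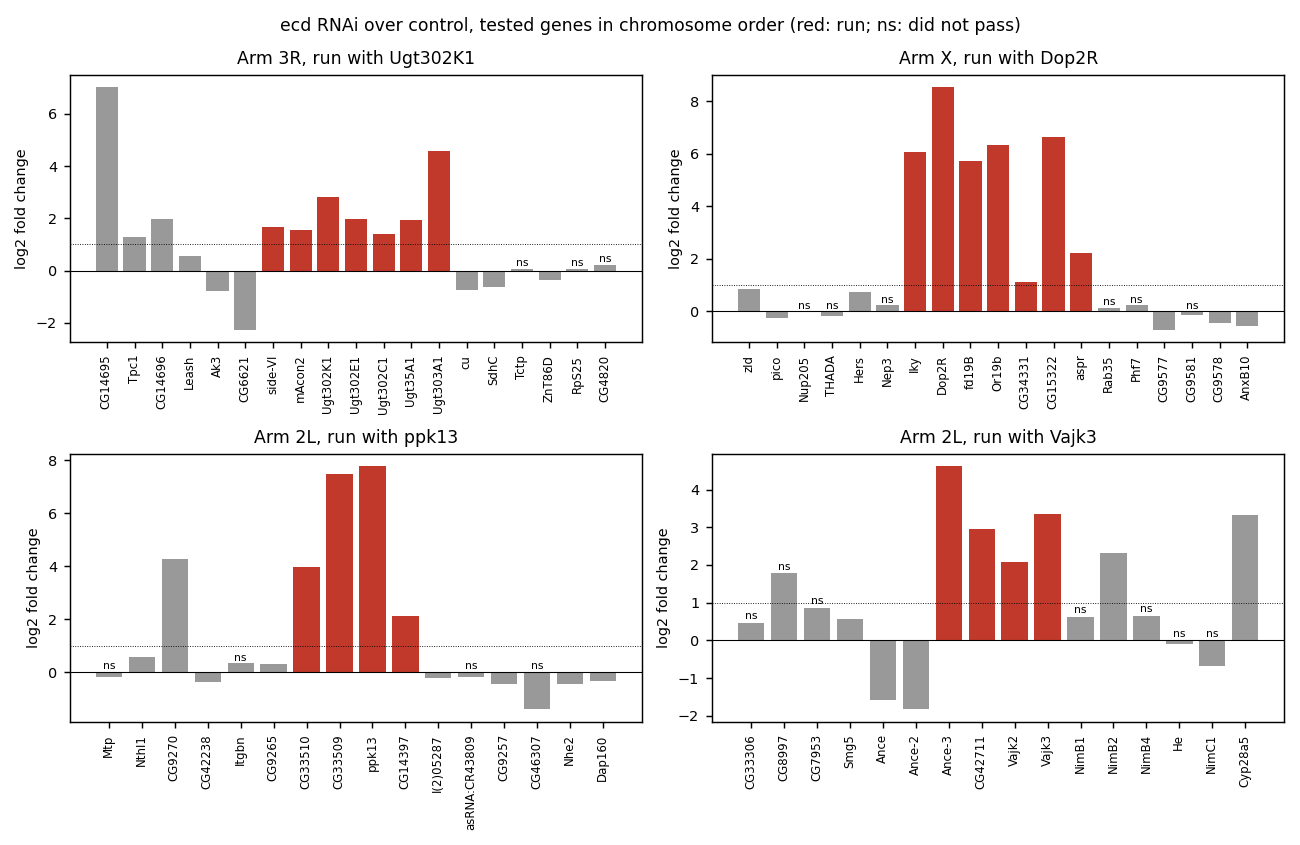
Log2 fold change of ecd RNAi over control for tested genes in chromosome order around 4 runs; red, members of the run; grey, flanking genes; ns, did not pass; dotted line, 2-fold. Members of a run stand above the dotted line by definition, at 1.39 to 4.56 in the run with Ugt302K1. In the run with Vajk3, the other members lie within Ance-3 on the other strand. Values for lky, fd19B and Or19b, listed at 0 in control, depend on the pseudocount.

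Introns of the named genes were read from the authors' deposited table, as their group means of a retention ratio between 0 and 1. Over the 17817 introns of that table, 388 (2.18%) had a higher ratio with ecd RNAi at the authors' adjusted p under 0.05 and 25 (0.14%) a lower one. At least 1 such higher intron was found in 65 of 1060 genes that rose and had an intron in the authors' deposited table (6.13%), in 162 of 1479 that fell (11%) and in 100 of 1996 that did not pass (5.01%). A gene with more introns in that table has more occasions to be counted. Neither introns per gene nor level was matched between these sets, and their part in the shares was not tested. Intron 1 of Cul2 (2L, 21658961 to 21659094) had a ratio of 0.934 with ecd RNAi and 0.472 in control in the authors' deposited table (adjusted p = 6.5e-44), and the level of the gene was higher too. There intron 3 also passed, with 0.356 with ecd RNAi and 0.160 in control (adjusted p = 3.0e-05), and the other Cul2 introns did not. Intron 4 of Rdh1 (2R, 7666946 to 7667003) had 0.0693 with ecd RNAi and 0.3005 in control in the authors' deposited table (adjusted p = 1.3e-06), a lower ratio for that intron where the level of the gene was higher. In unc-13, intron 16 had 0.526 with ecd RNAi and 0.237 in control (adjusted p = 2.6e-04), and intron 4 of another transcript 0.490 with ecd RNAi and 0.841 in control (adjusted p = 6.2e-05), in the authors' deposited table. Among genes that fell, intron 2 of Mcad had 0.204 with ecd RNAi and 0.0714 in control (adjusted p = 3.0e-05), and intron 5 of Eb1, a microtubule plus-end protein, 0.126 with ecd RNAi and 0.0285 in control (adjusted p = 1.1e-10), in the authors' deposited table. None of these introns is classed as clean in that table. Those of Mcad and of the other unc-13 transcript overlap a known exon and an antisense feature. Introns 1 and 3 of Cul2, intron 4 of Rdh1, intron 16 of unc-13 and intron 5 of Eb1 lie near an antisense feature. The ratios may thus hold reads of other transcripts, and they have no replicate values here. Each of these genes also had introns that did not pass.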

How the data were processed

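Total RNA of wing discs was sequenced in 3 groups of 4 libraries. Levels come from the authors' deposited table of normalized counts, a non-negative signal for each gene. Tools in the submitters' processing notes are cutadapt 3.5, FastQC, kallisto 0.46.1 and DESeq2 1.34.0, with build BDGP6. Strand use in counting is not given in the sources consulted, so genes that overlap and near-identical copies are uncertain. Normalized counts summed to 32368922 to 35397850 per ecd RNAi library and 26500844 to 28994135 per control library, and precision is that of the spread between 4 libraries. Another table, deposited by the authors, holds log2 fold changes, standard errors, a score (the test statistic) and p-values from DESeq2. It called 2450 genes higher and 2619 lower at an adjusted p under 0.05, of which 2233 and 2538 had the same call here and 0 the opposite one. The intron table gives, per the file headers, each group's mean retention ratio as a fraction, with adjusted p from the authors. Its 12 per-sample columns had names that matched no label, and they were not used.

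Of the table's features, 17869 are genes and 6063 are not. Those that are not, mostly transposon insertions, took 5.65% to 7.40% of the signal with ecd RNAi and 0.452% to 0.515% in control, and stayed out of the tests. The 10179 genes with a 12-library mean of 10 or more were tested, 268 of them with values identical to another gene's. limma 3.58.1 in R 4.3.3 was fitted to log2(value + 1), which understates changes of low genes, with a term per group over all 12 libraries, a trended prior, two-sided tests and Benjamini-Hochberg adjustment. Nothing in the labels says whether replicates came from separate cultures of flies on separate days, so p-values measure the spread between these samples. The fit was tested on simulated data for this comparison over 10179 genes, 200 of them changed: it recovered 69% at a log2 change of 1 and 86% at a log2 change of 2, with 12 false calls. The simulated noise was independent between genes and lacked the division by fat body transcripts, so these figures do not measure error in the real data.

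Same-numbered libraries of the groups correlated in their deviations from the group means (r of 0.533, 0.412, 0.559 and 0.235 for numbers 1 to 4), every one over 0.1. A replicate block by number was therefore fitted as an alternative to the main fit, which has no such term. Numbers 1 with 2 and 3 with 4 correlated as much across the groups (0.474, 0.572, 0.508 and 0.564), and the other pairs had r of -0.355 to -0.595, so the correlations follow the division by fat body transcripts and do not single out the number.

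The named genes are ecd, Xrp1 and nub; outside a list of 77 well-known stress genes and genes already picked out from these data, the 12 largest rises and falls whose groups did not overlap and whose mean was 50 or more, the 10 rises and 10 falls of smallest p with a mean of 500 or more in the higher group, and up to 3 rises and 3 falls of each list with a mean of 50 or more in the higher group; a part is described, and 1 gene is not reported here. Marker genes and list members given beside them were named after their values were seen. Lists and members were chosen with earlier results of these data known. Of 1611 list members 48 matched no gene of the table. Positions are 1-based, from the Ensembl annotation, release 115, of BDGP6. Alternatives changed the pseudocount, low filter, scaling, libraries, weights and block.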

Additional observations from a re-analysis of the deposited data

Results flagged for a closer look

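In a group of 4 libraries, a value was looked at again where its gap to the nearest of the others as a share of the group's range exceeded Dixon's critical value. Of 295 groups of values checked, 21 did so, and chance gives about 1 in 20. With ecd RNAi, replicate 3 supplied 4 of the 21. It stood at 9632 for Cht10, where the others were 12997 to 13626. It stood at 782 for crok (others 1029 to 1077), at 8877 for tsr (others 11750.1 to 12225) and at 261 for dpr8 (others 165 to 167). Replicate 1 stood at 1077 for bs (others 795 to 823) and at 35.7 for sens (others 18.1 to 19.7), and replicate 4 at 417 for Vajk3 (others 837 to 869).

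In control, single libraries held the only value above 0 for CG13579 (1.96, replicate 2), CR10102 (11.2, replicate 4), CG45086 (2.57, replicate 4) and Tdc1 (19.1, replicate 3). Control replicate 3 stood at 132 for asRNA:CR45139 (others 0 to 21.9), at 53.6 for CG46321 (others 111 to 119.7) and at 254 for mIF3 (others 295 to 301). Control replicate 4 stood at 27.4 for dpr8 (others 16.2 to 17.7), at 91.8 for acs (others 117 to 122) and at 3828 for Pgant9 (others 4283 to 4333). Control replicate 1 stood at 311 for amd (others 240.4 to 245), at 3044 for chn (others 2909 to 2928) and at 975 for Nxt1 (others 876 to 888), and control replicate 2 at 298 for mlt (others 253 to 260.3). No value in this paragraph or the one before it made the groups overlap.

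Features of the table that are not genes, mostly transposon insertions, were in no comparison of genes. They took at least 5.65% of the signal in each ecd RNAi library, up to 7.40%, and 0.452% to 0.515% in control.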

How the results depend on the processing

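Over 21 alternatives the genes higher with ecd RNAi numbered 1634 to 2508, the genes lower 2151 to 3017, the genes at least 2-fold higher 704 to 1106 and the genes at least 2-fold lower 337 to 591. Leaving out 1 library gave 2047 to 2236 higher, 2307 to 2657 lower, 747 to 849 at least 2-fold higher and 417 to 484 at least 2-fold lower. The median change of all genes moved between -0.07 and 0.01, and the share of calls that were higher between 41.7% and 49.5%, against 46.8% as reported. Of 149 genes described, 148 passed, and 144 kept call and direction under each alternative that tested them; at a mean of at least 50, 142 were tested. The other 5 were ecd, nub, dyl, ple and png; nub lost its call under 7 alternatives, with adjusted p of 0.0513 to 0.092, and the cause was not tested. No change reversed. With the replicate block, 2210 genes were higher, 2655 lower, 793 at least 2-fold higher and 445 at least 2-fold lower. The block changed the call of none of the 149 genes; on lists of lysosomal, fatty acid oxidation and innexin genes it gave 5 falls against 3, 1 rise against 2 and 0 rises against 1. Under quantile normalization the falls numbered 4 against 2 for UDP-glycosyltransferases, 7 against 2 for chemoreceptors and 5 against 3 for hormone metabolism, and the rises 16 against 10 for actin regulators and 4 against 2 for homeotic, segmentation and gap genes. Without the low filter the rises numbered 105 against 59 for long noncoding RNA genes, 11 against 5 for chemoreceptors and 9 against 4 for the dpr and DIP families. Depth per library is not given as counts, so levels near 0 carry no counting error here.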
